A study of Homo sapiens with 4 samples.

Results

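The ZIC genes encode zinc finger transcription factors, and 4 of them, ZIC1, ZIC2, ZIC4 and ZIC5, were followed here in a colorectal cancer cell line and its drug-resistant subline. They were chosen by gene symbol. All 7 probe sets annotated to exactly 1 of these symbols were taken, out of 54613 probe sets tested, and the 4 genes stand among 19775 genes that have a probe set with 1 symbol. ZIC1 had 3 probe sets, ZIC2 1, ZIC4 2 and ZIC5 1. The family was proposed because of its values in this same comparison, so its intensities and fold changes are given below as a description and without a test.

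Total RNA of 320-IWR cells and of parental COLO-320DM cells was hybridised to single-channel GeneChip arrays (Human Genome U133 Plus 2.0), 2 per line and 4 in all. COLO-320DM is an APC-mutated colorectal cancer line that depends on Wnt/β-catenin signaling. 320-IWR was derived from it by continuous culture with IWR-1, an inhibitor of the poly(ADP-ribose) polymerase tankyrase, and is a selected population rather than a single clone. Whether IWR-1 was still present when the 320-IWR cells were harvested is not given in the sources used here. Both lines were grown to near confluency before extraction. The labels do not tell whether replicate arrays came from different dishes, so every error here covers differences among arrays that could be purely technical.

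ZIC proteins were named as zinc finger proteins of the cerebellum. They are relatives of the GLI factors that carry Hedgehog signals, bind DNA through similar C2H2 zinc fingers, and act in the early neural plate, neural crest and cerebellum. In Xenopus, Zic2 binds a TCF factor and dampens β-catenin-dependent transcription. Loss of one copy of human ZIC2 causes holoprosencephaly, a failure of the forebrain to divide, and joint deletion of ZIC1 and ZIC4 has been linked to Dandy-Walker malformation of the cerebellum. The genes lie in head-to-head pairs that are transcribed away from each other. ZIC2 (chromosome 13, 99981784 to 99986765, GRCh38.p14) and ZIC5 (99962964 to 99971909) are separated by 9.88 kb, and ZIC1 (chromosome 3, 147409365 to 147416719) and ZIC4 (147386046 to 147406543) by 2.82 kb.

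The promoter sequences of 3 members are shown, because the partners ZIC2 and ZIC5 were both higher in 320-IWR cells while ZIC1 was not. Each is the 250 bases before the outermost annotated RefSeq start of the gene in GRCh38.p14, 5′ to 3′ on the gene's own strand: chr13:99981534-99981783 (plus strand) for ZIC2, chr13:99971910-99972159 (minus strand) for ZIC5 and chr3:147409115-147409364 (plus strand) for ZIC1. Capitals mark matches on either strand to the GC box GGGCGG, the CCAAT box, the TATA box TATAAA and the TCF-like words CTTTGAT and CTTTGAA.
ZIC2: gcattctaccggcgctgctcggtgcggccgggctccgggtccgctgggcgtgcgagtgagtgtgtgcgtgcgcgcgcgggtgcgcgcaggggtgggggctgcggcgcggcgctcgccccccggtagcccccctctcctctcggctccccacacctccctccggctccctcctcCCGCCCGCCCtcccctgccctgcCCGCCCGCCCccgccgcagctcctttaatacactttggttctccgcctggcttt
ZIC5: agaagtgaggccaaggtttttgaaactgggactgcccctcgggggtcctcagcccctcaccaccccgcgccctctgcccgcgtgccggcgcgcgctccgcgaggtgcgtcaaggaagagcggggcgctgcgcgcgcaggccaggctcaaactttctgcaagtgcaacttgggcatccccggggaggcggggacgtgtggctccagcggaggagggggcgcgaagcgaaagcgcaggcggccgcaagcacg
ZIC1: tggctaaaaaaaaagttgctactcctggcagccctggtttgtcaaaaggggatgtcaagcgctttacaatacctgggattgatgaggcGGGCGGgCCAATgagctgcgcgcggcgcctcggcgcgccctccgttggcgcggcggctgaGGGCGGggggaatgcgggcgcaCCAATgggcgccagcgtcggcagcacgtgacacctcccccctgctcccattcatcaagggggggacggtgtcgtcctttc

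The ZIC2 window was 75.6% G and C and held 31 CpG dinucleotides, against a median of 58% and 11 CpG over 35116 promoter windows of the same length. The ZIC5 window was 70.4% G and C with 28 CpG, and the ZIC1 window 64.4% with 23 CpG. Among the outermost windows of the 4 genes, that of ZIC4 was the poorest with 42.8% and 9 CpG. The ZIC2 window held 4 matches to GGGCGG, which overlap in pairs, and ZIC1 held 2. A match to this word was found in 42.6% of all windows. CCAAT occurred 2 times in the ZIC1 window and in neither the ZIC2 nor the ZIC5 window, beside 32% of all windows. TATAAA (10.7% of all windows) and CTTTGAT (2.26%) were not found in these 4 windows, and CTTTGAA (3.8% of all windows) was found in that of ZIC4 alone. These matches describe the letters only. ZIC4 and ZIC5 have further annotated starts, whose windows are not shown. For ZIC5, the window chr13:99971768-99972017 held CCAAT 3 times and chr13:99969173-99969422 held it 1 time. The absence of CCAAT from ZIC5 thus holds for its outermost start only.

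ZIC2, the member linked to forebrain division, had by far the largest difference between the lines. Its probe set 223642_at had intensities of 666 and 682 on the 320-IWR arrays, against 35.1 and 34.9 on the COLO-320DM arrays. Both 320-IWR arrays were high and both COLO-320DM arrays low, with no overlap. The mean intensity was 674 ± 10.8 in 320-IWR cells and 35.0 ± 0.141 in COLO-320DM cells (SD, n = 2 each). On the log2 scale the lines differed by 4.27 (standard error 0.11), or 19.2-fold. This standard error comes mostly from the variance over all probe sets, since the pooled SD of the log2 values of ZIC2 was 0.017. The replicates of a line were close, with a gap of 0.03 on the log2 scale between the 320-IWR arrays and of 0.01 between the COLO-320DM arrays, while the nearest arrays of different lines were 4.25 apart. By fold, this was the 5th largest rise among all 54613 probe sets. Detection calls were not used here, so the height of the COLO-320DM intensities above background is unknown, and with 16 added to every intensity before log2 the difference was 3.76. ZIC2 has 1 probe set here, so its transcript was measured once per array. In RNA of whole cultures, more cells with ZIC2 transcripts and more transcripts per cell cannot be told apart.

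ZIC5, the partner of ZIC2 on chromosome 13, was also higher in 320-IWR cells, but it was dimmer and its replicates were further apart. ZIC5 is known from the mouse for its part in neural crest and neural tube development. Probe set 1552938_at had intensities of 34.4 and 59.4 on the 320-IWR arrays, against 17.3 and 12.4 on the COLO-320DM arrays. The lines did not overlap, although the gap of 0.99 on the log2 scale between their nearest arrays was little larger than the gap of 0.79 between the 320-IWR arrays themselves. The mean intensity was 46.9 ± 17.7 in 320-IWR cells and 14.8 ± 3.52 in COLO-320DM cells (SD, n = 2 each). The log2 fold change was 1.63 with a standard error of 0.32, or 3.09-fold. All 4 values lie below 64, the level used as a limit for dim probe sets (6 on the log2 scale), so the size of the fold is uncertain. With 16 added before log2 it was 1.005 on the log2 scale, and when single arrays were left out it lay between 1.24 and 2.02.

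ZIC1 and ZIC4, the pair on chromosome 3, stayed dim in both lines. Over their 5 probe sets and all 4 arrays the intensities ran from 4.45 to 28.7, and the log2 fold changes from -0.06 to 0.19 with standard errors between 0.12 and 0.16. ZIC1, which acts in the neural crest and in cerebellar granule cell precursors, was measured by 3 probe sets that do not point one way. Probe set 206373_at, designed on the RefSeq transcript, had intensities of 9.81 and 8.86 in 320-IWR cells, against 8.45 and 7.89 in COLO-320DM cells. The lines did not overlap there, but the log2 fold change was only 0.19 (standard error 0.13). Probe set 234716_at had 24.6 and 27.2 in 320-IWR cells, against 24.6 and 28.7 in COLO-320DM cells, so that the first replicates of the lines held the same value. The third, 236896_at, had 5.49 and 4.74 in 320-IWR cells, against 4.45 and 4.88 in COLO-320DM cells, and overlapped. A further probe set, 241440_at, is annotated to ZIC1 together with a neighbouring uncharacterised gene. It was not counted, and its log2 fold change was 0.01 (standard error 0.13). ZIC4, whose role is best known from the cerebellum, had intensities of 11.8 and 12.4 in 320-IWR cells, against 12.4 and 12.8 in COLO-320DM cells, for probe set 211463_at. Its other probe set, 236711_at, had 7.86 and 6.68 in 320-IWR cells, against 6.49 and 7.62 in COLO-320DM cells. The log2 fold changes were -0.06 and 0.04, and neither separated the lines.

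**Figure D1:**
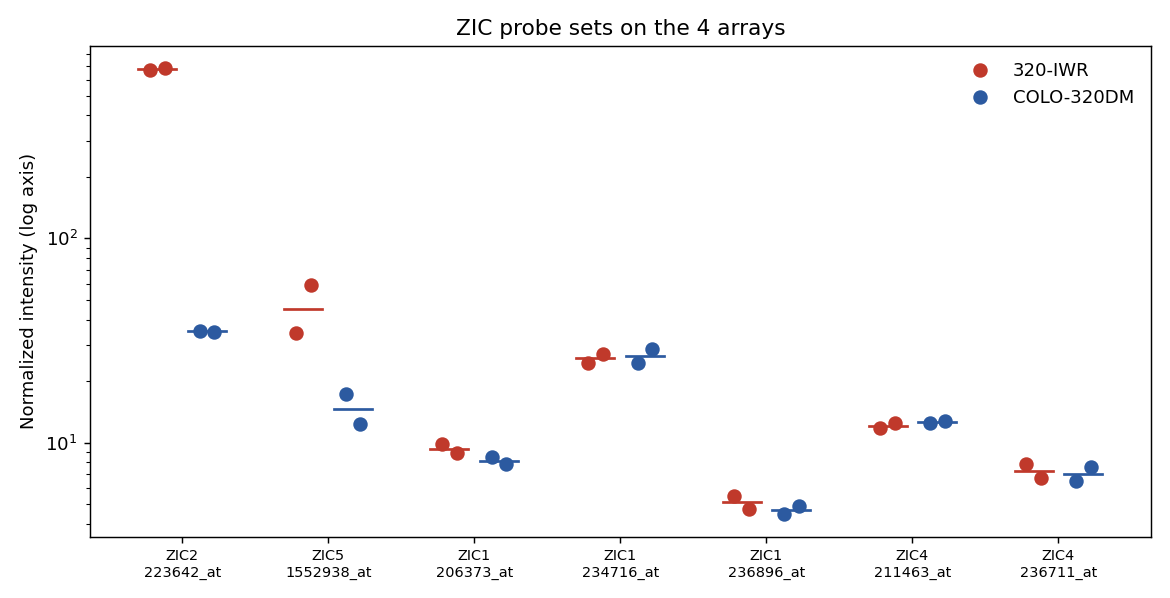
Normalized intensity (log axis) of the 7 ZIC probe sets on each array, with 320-IWR in red and COLO-320DM in blue, 1 point per array and a bar at the mean of log2 values. ZIC2 stands at 666 and 682 in 320-IWR cells and at 35.1 and 34.9 in COLO-320DM cells, ZIC5 is apart by less, and the ZIC1 and ZIC4 probe sets lie between 4.45 and 28.7 in both lines.

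The members thus differed among themselves. In 3 of the 7 probe sets, those of ZIC2 and ZIC5 and 1 of ZIC1, both 320-IWR arrays lay above both COLO-320DM arrays, and 0 lay below. Among all probe sets 19.5% lay above and 16.1% below in this way. In the fit over all probe sets (limma; a call needs a Benjamini-Hochberg adjusted p below 0.05 and a 2-fold difference), 1 of the 7, that of ZIC2, was called higher and 0 were called lower, while 0.112% of all probe sets were called higher, 0.258% lower and 0.37% in either direction. Since this contrast led to the choice of the family, nothing is read from these counts. The fits that left out a 320-IWR array called 0 probe sets of any gene, and those that left out a COLO-320DM array called ZIC2. Only the ZIC2 probe set reached a mean log2 intensity of 6 in a line.

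**Figure D2:**
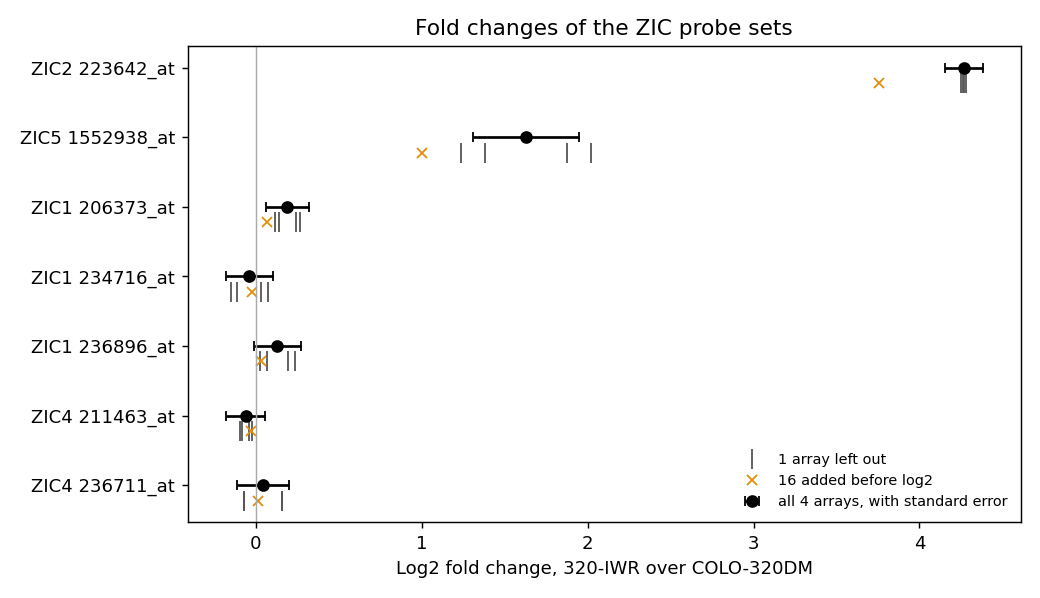
Log2 fold change of each ZIC probe set, 320-IWR over COLO-320DM, with its standard error (black), the values when 1 array is left out (ticks) and the value with 16 added to each intensity (crosses). ZIC2 stays between 4.25 and 4.28 when single arrays are left out and ZIC5 between 1.24 and 2.02, and the other probe sets stay close to 0.

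The measured genes beside ZIC2 and ZIC5 had smaller differences. Of the 5 nearest annotated genes on each side, 2 of 10 had a probe set with 1 symbol. CLYBL, which encodes a mitochondrial lyase, lies 53.5 kb away and had intensities of 337 and 325 in 320-IWR cells, against 303 and 301 in COLO-320DM cells. Its log2 fold change was 0.13 (standard error 0.12), and that of its antisense gene CLYBL-AS1, dim on all arrays, was 0.20 (standard error 0.20). Since so few were measured, the 5 nearest genes with a probe set on each side were taken as well, a choice made after the first count was seen and therefore given without a test. On chromosome 13 these 10 genes had log2 fold changes between -0.65 and 0.53 with a median of -0.05. In 2 of them, CLYBL and the γ-glutamylamine cyclotransferase gene GGACT, both 320-IWR arrays were above both COLO-320DM arrays, and in 3, TM9SF2, TMTC4 and the sodium leak channel gene NALCN, they were below. Among all genes, each by its brightest probe set, this held for 21% and 17.5%, so that 2 above and 3 below in 10 are near the background. NALCN and GGACT, which gave the lowest and the highest value, were dim on all arrays. PCCA, which encodes a subunit of propionyl-CoA carboxylase and is the nearest measured gene on the ZIC2 side at 102 kb, had intensities of 237 and 197 in 320-IWR cells, against 267 and 197 in COLO-320DM cells, and overlapped.

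Around ZIC1 and ZIC4 on chromosome 3, the values at the pair were small and some further out were larger. Of the 10 nearest annotated genes, 0 had a probe set with 1 symbol. Of the 10 nearest measured genes, all more than 0.661 Mb away, 5 had both 320-IWR arrays above both COLO-320DM arrays and 2 had them below, beside the same 21% and 17.5% of all genes, and the median log2 fold change was 0.28. The largest value belonged to AGTR1, a receptor of angiotensin II, which had intensities of 647 and 899 in 320-IWR cells, against 179 and 317 in COLO-320DM cells (log2 fold change 1.68, standard error 0.33). PLSCR1, a phospholipid scramblase, had 1555 and 1538 in 320-IWR cells, against 982 and 914 in COLO-320DM cells (log2 fold change 0.71, standard error 0.12).

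**Figure D3:**
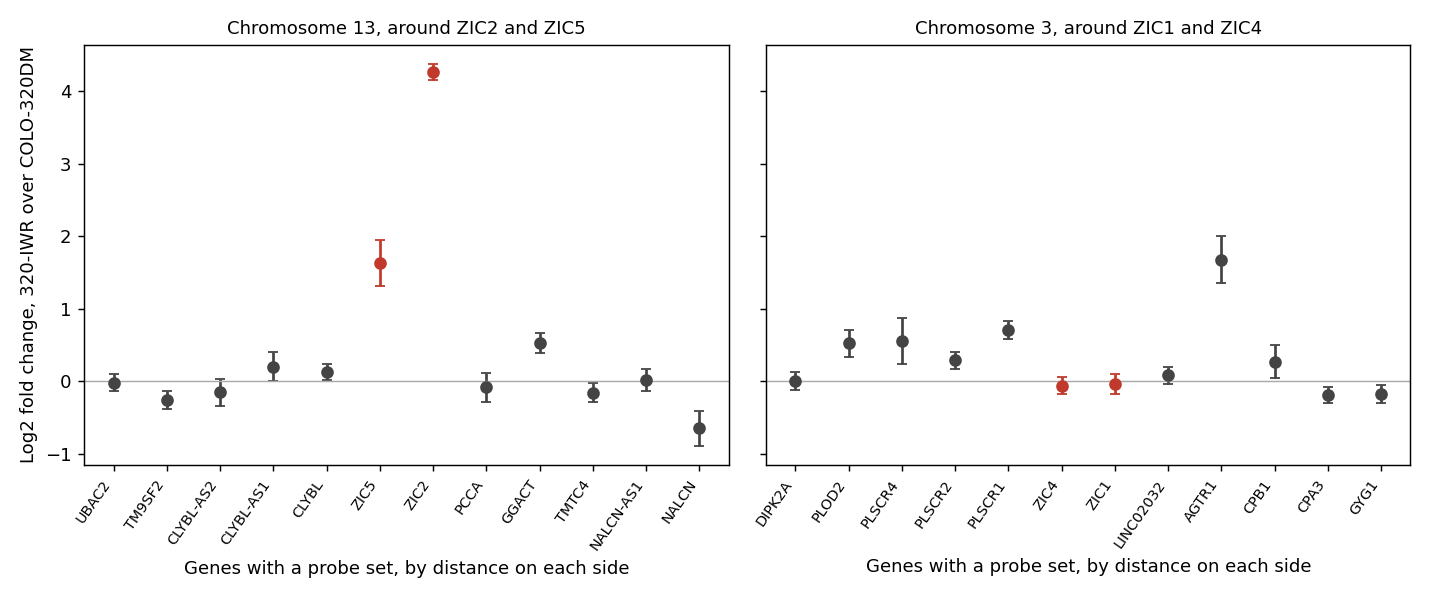
Log2 fold change, 320-IWR over COLO-320DM, with standard error, of the ZIC pairs (red, brightest probe set of each) and of the 5 nearest measured genes on each side (grey), ordered by distance. On chromosome 13 ZIC2 (4.27) and ZIC5 (1.63) stand above neighbours that lie between -0.65 and 0.53, and on chromosome 3 the ZIC pair is near 0 while AGTR1 reaches 1.68.

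The genes whose pattern over the 4 arrays was most like that of ZIC2 were MGST1, CTAG2, PROM1, POU5F1P3 and POU5F1P4. Likeness was the Euclidean distance between log2 values over the 4 arrays, each centred on its COLO-320DM mean, with the nearest probe set of each gene. The distance was 0.32 for MGST1 (231736_x_at), a microsomal glutathione transferase, which had intensities of 682 and 670 in 320-IWR cells, against 34.1 and 28.2 in COLO-320DM cells. It was 0.45 for the cancer/testis antigen gene CTAG2 and 0.57 for PROM1, which encodes CD133. For the POU5F1 pseudogenes it was 0.59 (POU5F1P3, 210265_x_at) and 0.86 (POU5F1P4, 210905_x_at). Whether those signals came from these copies or from other POU5F1 sequences was not tested. Such a distance over 4 arrays of 2 lines mostly finds genes with a similar fold. The nearest probe sets were all high on both 320-IWR arrays and low on both COLO-320DM arrays. The other MGST1 probe sets spread widely, with log2 fold changes from 0.21 to 5.36, and the lowest of them was dim and overlapped. The likeness of MGST1 thus holds for its nearest probe set only.

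Genes related to the ZIC factors by family or pathway did not pass the test. In 8 lists that together hold 80 measured genes, each gene represented by its brightest probe set, limma called 0 genes, and 18 had an unadjusted p under 0.05. Among all 19775 genes, 0.592% were called and 12.3% had an unadjusted p under 0.05. The median log2 fold change of the 80 genes was -0.03, against 0.02 over all genes. Of the 80, 37 reached a mean log2 intensity of 6 in a line and the others were dim, where detection is unknown. No other tool was run.

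Among the closest relatives, the 6 measured GLI and GLIS genes were all lower by mean, with log2 fold changes between -0.56 and -0.16, and 0 were called (1 at an unadjusted p under 0.05). Only 2 of the 6, GLIS2 and GLI3, passed the limit for dim probe sets. The lines overlapped in GLI1, GLI3 and GLIS3. In GLIS2, GLIS1 and GLI2 both 320-IWR arrays were below both COLO-320DM arrays, which held for 17.5% of all genes. GLIS1 and GLI2 were dim, with log2 fold changes of only -0.19 and -0.17, so nothing is read from these directions. GLIS2 had intensities of 306 and 219 in 320-IWR cells, against 384 and 379 in COLO-320DM cells, which did not overlap (log2 fold change -0.56, limma adjusted p = 0.45). GLI3, mainly a repressor of Hedgehog targets, had 216 and 260 in 320-IWR cells, against 234 and 343 in COLO-320DM cells. Of 15 measured genes of the Hedgehog pathway, 7 were higher and 8 lower by mean (6 and 9 under cyclic loess), with a median of -0.02, and 0 were called (3 at an unadjusted p under 0.05). The receptor and target gene PTCH1 had 473 and 639 in 320-IWR cells, against 767 and 1246 in COLO-320DM cells (log2 fold change -0.83, limma adjusted p = 0.456). The kinesin gene KIF7, the decoy receptor gene HHIP and the acyltransferase gene HHAT had the next largest values, -0.77, -0.60 and 0.39, so that the 4 named here were picked by size.

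Of 14 measured holoprosencephaly genes other than ZIC2, 0 were called, 2 had an unadjusted p under 0.05, and the median log2 fold change was 0.00. They include SHH, whose intensities were 36.1 and 41.3 in 320-IWR cells, against 32.2 and 39.6 in COLO-320DM cells, and SIX3, with 16.2 and 15.4 in 320-IWR cells, against 15.8 on both COLO-320DM arrays. Both overlapped and both were dim, and only 4 of the 14 genes passed the limit for dim probe sets. The largest values were those of PTCH1, given above, and of the receptor tyrosine kinase gene FGFR1 (-0.59).

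The 16 genes of the neural plate border and neural crest, where ZIC1 and ZIC5 act in the embryo, held the widest range. SOX9 had 20.7 and 15.1 in 320-IWR cells, against 146 and 65.6 in COLO-320DM cells. The lines did not overlap (log2 fold change -2.47, standard error 0.42), but limma's adjusted p was 0.146. It was 0.0451 in the fit with a replicate block and 0.0447 when the probe sets of each gene were averaged, so SOX9 is called under these settings. SOX9 is also a gene of intestinal crypts. DLX3 had a log2 fold change of -1.64 and TFAP2B, dim on all arrays, of -0.83. With 16 added before log2 the values were -1.77 for SOX9, -1.28 for DLX3 and -0.44 for TFAP2B. Only 6 of the 16 genes passed the limit for dim probe sets. MSX2 had 120 and 560 in 320-IWR cells, against 60.0 and 158 in COLO-320DM cells, with the second replicate high in both lines. In the list 0 genes were called, 4 had an unadjusted p under 0.05 and the median was -0.07. PAX3, which acts together with ZIC1 at the neural plate border in Xenopus, had 94.0 and 125 in 320-IWR cells, against 157 and 196 in COLO-320DM cells (log2 fold change -0.69).

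Of 13 measured genes of the dorsal hindbrain and cerebellum, 0 were called, 3 had an unadjusted p under 0.05 and the median was -0.03. LMX1A, a factor of the roof plate, was dim, with 31.5 ± 7.35 in 320-IWR cells and 17.1 ± 1.53 in COLO-320DM cells (SD, n = 2 each; log2 fold change 0.87, limma adjusted p = 0.248). LHX2 had the largest value in the other direction (-0.72). ATOH1, the determinant of cerebellar granule cells and of secretory cells of the gut, had 48.1 and 45.9 in 320-IWR cells, against 48.6 and 46.4 in COLO-320DM cells, and overlapped. It was also below the limit for dim probe sets, which 4 of the 13 genes passed.

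Of 11 proteins reported to bind ZIC factors or to be regulated by them, 0 genes were called, 1 had an unadjusted p under 0.05 and the median was 0.05. The import receptor genes KPNA1 and KPNA6 had log2 fold changes of 0.20 and 0.09, and MBD3, a subunit of the NuRD chromatin complex, had the largest value of 0.58. Among 5 measured genes of the TCF and LEF factors with CTNNB1 and AXIN2, 0 were called and 3 had an unadjusted p under 0.05. The feedback inhibitor gene AXIN2 had 1918 and 1888 in 320-IWR cells, against 5018 and 3717 in COLO-320DM cells (log2 fold change -1.18, limma adjusted p = 0.121). LEF1 had 1208 and 1501 in 320-IWR cells, against 2359 and 2746 in COLO-320DM cells (log2 fold change -0.92, limma adjusted p = 0.168). The lines did not overlap in either gene. The study that made the arrays reported, by RT-qPCR, strong repression of both in 320-IWR cells. TCF7L1, a TCF factor that acts mainly as a repressor, went the other way and was dim, with 43.6 and 41.4 in 320-IWR cells, against 34.5 and 32.2 in COLO-320DM cells (log2 fold change 0.35, limma adjusted p = 0.448). These were the 3 with an unadjusted p under 0.05. TCF7L2, the main TCF factor of the colon, had a log2 fold change of -0.28 (limma adjusted p = 0.577).

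Of 8 genes of the primed epiblast, a state of the early embryo in which ZIC2 is active in the mouse, 0 were called, 2 had an unadjusted p under 0.05 and the median was -0.03. SALL2 had 461 and 441 in 320-IWR cells, against 696 and 726 in COLO-320DM cells (log2 fold change -0.66), and the DNA methyltransferase gene DNMT3B had 189 and 208 in 320-IWR cells, against 251 and 272 in COLO-320DM cells. SOX2, OTX2, POU3F1 and FGF5 lay between -0.04 and 0.04, but all were dim, and only SALL2 and DNMT3B of the 8 genes passed the limit of 64.

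**Figure D4:**
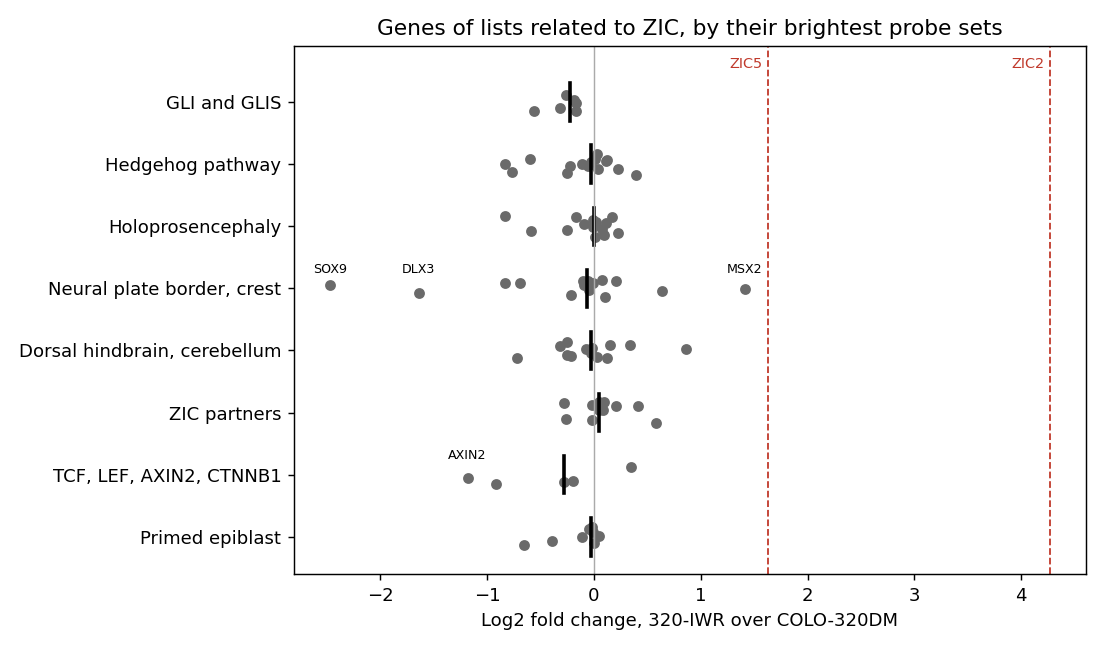
Log2 fold change, 320-IWR over COLO-320DM, of each measured gene in 8 lists related to the ZIC factors, 1 point per gene and list, with a black bar at the median of the list and dashed red lines at ZIC5 (1.63) and ZIC2 (4.27). The medians lie between -0.28 and 0.05, and names are given where a gene exceeds 1 on the log2 scale in either direction.

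The 4 arrays were alike in scale. Their median intensities lay between 41.0 and 41.8. Pearson's r of log2 values, taken over probe sets that do not count as replicates, was 0.991 between the 320-IWR arrays and 0.990 between the COLO-320DM arrays, little above the 0.980 to 0.988 between arrays of different lines. The colon marker CDX2 was bright on all arrays. It had 2723 and 2790 in 320-IWR cells, against 3403 and 3263 in COLO-320DM cells, which did not overlap (log2 fold change -0.27). EPCAM and CDH1 were dim in both lines (13.5 to 35.1 and 16.2 to 18.8). Of the 7 colon epithelial markers, limma called KRT8 and KRT18 lower and KRT20 higher in 320-IWR cells. Their log2 fold changes were -2.26, -1.67 and 1.78 (limma adjusted p = 0.0155, 0.0323 and 0.0412). Among all genes the share called was 0.592%. VIL1 had 67.5 and 70.0 in 320-IWR cells, against 66.3 and 63.1 in COLO-320DM cells (log2 fold change 0.09). Of 10 measured markers of leukocytes, fibroblasts and endothelium, limma called 0 and none had an unadjusted p under 0.05. Among all genes these shares were 0.592% and 12.3%. The log2 fold changes of the markers lay between -0.07 and 0.32. Only PTPRC, PECAM1, COL1A1 and COL3A1 passed the limit for dim probe sets. COL3A1 had 278 and 1187 in 320-IWR cells, against 292 and 1193 in COLO-320DM cells, with the second replicate high in both lines.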

How the data were processed

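Normalized intensities of 4 GeneChip Human Genome U133 Plus 2.0 arrays were used, 2 of 320-IWR and 2 of COLO-320DM cells, each mapped by its label. The deposited intensities are linear probe set values that the authors made with RMA (submitters' notes, no version), and GeneSpring GX is named for normalization. Log2 was taken with a floor of 1. Of 54675 probe sets, 62 controls were left out. Using R 4.3.3 and limma 3.58.1 (lmFit, eBayes), lines were compared over 54613 probe sets with cell line as the only term and called at 2-fold and an adjusted p (Benjamini-Hochberg) below 0.05. The procedure was also run on simulated data with independent noise on each array. That setting leaves out the shared deviations of same-numbered arrays described below, so nothing about the calls is read from it. Gene symbols come from the supplied platform annotation (41091 probe sets with 1 symbol), coordinates and promoters from RefSeq tables of GRCh38.p14. All members and lists were chosen with earlier results of these data known. Named genes were the members, GLI and GLIS genes, neighbours, the 5 most like ZIC2, and called genes or up to 4 with the largest changes per list; SHH, SIX3, PAX3, ATOH1, KPNA1, KPNA6 and the epiblast factors outside these were named for their roles. Alternatives were a replicate block, each array left out, cyclic loess, equal array medians, a trended robust prior, a dim filter (mean log2 of at least 6 in a line), 16 added before log2, arithmetic means, the mean of a gene's probe sets, and no _x_at or _s_at probe sets. The number of arrays limits the precision.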

Additional observations from a re-analysis of the deposited data

How the results depend on the processing

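ZIC2 kept its log2 fold change in 9 of 10 alternatives to within the spread of replicates, and ZIC5 in 8 of 9. Most of these agreements were fixed in advance, so nothing is read from the tally. The replicate block and the dim filter cannot change the fold. Leaving out 1 array always moves it by no more than this spread. Cyclic loess, equal array medians and arithmetic means could move it, and gave 4.25, 4.27 and 4.27 for ZIC2. For ZIC5 they gave 1.61, 1.63 and 1.66. With 16 added before log2 the values were 3.76 for ZIC2 and 1.005 for ZIC5. Without single arrays ZIC2 ranged from 4.25 to 4.28 and ZIC5 from 1.24 to 2.02. The signs of ZIC1 234716_at and ZIC4 236711_at changed when single arrays were left out (from -0.15 to 0.07 and from -0.07 to 0.16). The count of ZIC probe sets called was between 0 and 1 when single arrays were left out, and the count over all probe sets between 0 and 63, against 202 with all arrays. A line left with 1 array is assumed to vary like the other. Without 320-IWR replicate 1 or 2, limma called 0 probe sets at all (3756 and 3502 at an unadjusted p under 0.05), so the loss is not particular to ZIC2. With the replicate number as a block (replicate block), 576 probe sets were called, and ZIC2 was the 1 ZIC probe set called. Same-numbered arrays deviated together (r = 0.661 over probe sets), but the labels do not say that a number marks a shared culture or day, and with 2 numbers this does not establish a pairing. Of the 80 genes in the lists, 1 (SOX9) was called with the replicate block and 1 (SOX9) with each gene's probe sets averaged, against 0 in the fit without the block. Without single arrays the count was 0. Dim levels without detection calls limit the folds of ZIC5, ZIC1 and ZIC4.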
